A study of Mus musculus with 76 samples.

Results

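The comparison described here set 2 RNA libraries labelled as mature myeloid cells of mouse bone marrow against 3 libraries labelled as early T progenitors of bone marrow (BM ETP), which gives 5 of the 76 libraries of the series. Membership came from the sample labels alone. The study as a whole asked how Hoxb5, a homeobox transcription factor, turns B cells toward the T lineage, and natural cells of each stage were profiled for reference. Each library held RNA of 1000 sorted cells, was amplified as cDNA and was prepared by tagmentation. Of the 76 libraries, 75 were distinct, since 1 pro/pre-B library was a copy of another and was left out.

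All groups used here came from mice of the C57BL/6 strain and from bone marrow, and no label of the groups used here names a vector or a treatment. The general wording of the labels gives the animals as recipients, without naming a graft for these groups. For context, 4 libraries of hematopoietic stem cells (HSC), 4 of multipotent progenitors (MPP), 4 of mature B cells and 3 of mature T cells were used. Ages, surface markers of the sorts and the number of animals behind each library are not given in the sources used here. Libraries of a group may thus share animals, and p-values measure a spread between libraries, not between animals. This spread was pooled over all groups of the series and was not taken from the compared groups alone. For a gene that is silent in most groups, the p-value thus leans on groups in which the gene does not vary. Levels are FPKM, a read level divided by transcript length and by the size of the library. Differences are myeloid minus BM ETP on the scale of log2(FPKM + 1), with the standard error of the limma fit, and a gene was called when its Benjamini-Hochberg adjusted p was below 0.05. Differences of low genes are understated on this scale. Where 2 sets of levels are joined by "against", the first belongs to the group named first, which is the myeloid group where none is named.

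Neutrophils and monocytes arise in the marrow from shared granulocyte and monocyte progenitors. During neutrophil formation, primary (azurophil) granules are filled first with serine proteases and myeloperoxidase, and secondary (specific) granules follow with lactoferrin, cathelicidin and collagenase as the protease genes fall silent. Early T progenitors are the immature cells that seed T cell formation, and those of the marrow are usually described as cells with Kit, Flt3 and early lymphoid genes.

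The myeloid libraries stood apart from all others in ways that touch every result. Their depth, placed from the steps between low values of genes with a single transcript, was near 0.992 fragments per FPKM and kilobase in each, against 3.72, 4.98 and 5.09 in the BM ETP libraries and 2.43 to 11.3 over all 73 distinct libraries outside the myeloid group. Their 10 highest genes held 65.4% and 45.5% of all FPKM, against 11.9% to 12.1% in BM ETP, and in the first library the immunoglobulin joining segments Ighj1 and Ighj4, which are very short features, alone held 25.7% and 20.5%. A total of 107 genes were at 20 FPKM or more in both myeloid libraries and below 5 FPKM in all other libraries, while the same count was 1 for BM ETP, 6 for mature B and 0 for mature T cells. These 107 genes included Taf15, an RNA-binding protein of most cells, at 71.3 and 75.4 FPKM against at most 4.07, and Pigt, an enzyme of lipid anchor transfer, at 48.9 and 54.9 FPKM against at most 4.53. Xist, the RNA of the inactive X chromosome, was 96.5 and 93.5 FPKM in the myeloid and 5.52, 4.9 and 3.59 in the BM ETP libraries, and the Y-linked genes Eif2s3y, Kdm5d and Uty were at 0 in all 5. Mature B and T cells held no Xist, and their Y-linked genes summed to 90.5 to 143 and 80.7 to 91.6 FPKM. All 4 Y-linked genes tested were called lower in myeloid than in mature B and T libraries, and in BM ETP than in HSC and MPP. In those 2 comparisons sex and cell type cannot be told apart. No cause of these features was tested.

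Differences also followed transcript length. Among expressed genes with a transcript of up to 1000 bases, the median difference from BM ETP was -1.41 on the log2 scale, and it rose steadily to 1.38 for transcripts over 8000 bases. The same trend stood between the myeloid and the mature B and T libraries, from -1.21 to 0.72. Between BM ETP and the HSC and MPP libraries it ran from 0.31 to -0.25. The labels give no batch or date, so a library effect and a cell type effect cannot be told apart here. Calls of the lists below are therefore given also after the trend was removed within each library, an alternative added after seeing the data.

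**Figure D1:**
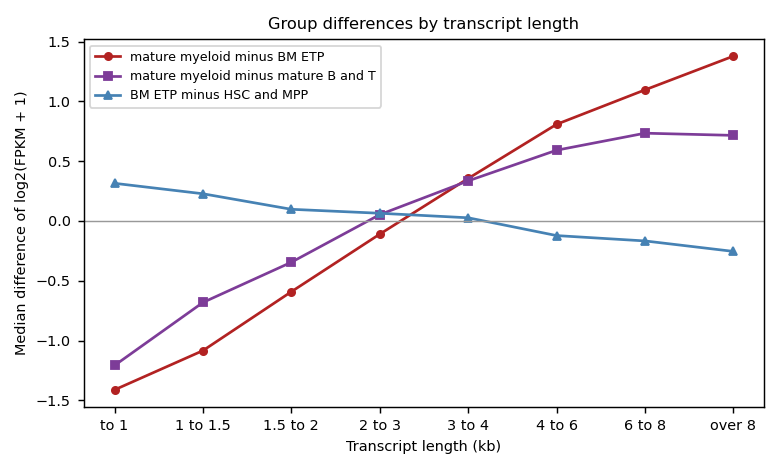
Median difference of log2(FPKM + 1) by transcript length in kilobases for 3 comparisons of group means, over genes with a mean log2 level above 3. The myeloid comparisons climb from -1.41 and -1.21 for the shortest transcripts to 1.38 and 0.72 for the longest, while BM ETP against HSC and MPP falls from 0.31 to -0.25.

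The labels were checked against defining markers. The myeloid libraries held the granule proteins of neutrophils and the surface receptors of monocytes together, with Lyz2 at 18458 and 19466 FPKM and S100a9 at 29798 and 18838 FPKM. T cell genes were near 0 in them: Cd3g, Cd8a, Cd8b1 and Cd6 were at 0 in both. The BM ETP libraries showed the early lymphoid genes of their label in part. Against the mean of HSC and MPP, 6 of 18 lymphoid and T priming genes were called higher in them and 3 lower, where 14% of all genes were called higher and 18.6% lower. In them Il7r, the interleukin 7 receptor, was 0.0803, 0.483 and 0.818 FPKM, Tcf7, a factor of T cell commitment, was 3.31, 4.74 and 1.55 FPKM, and Dtx1, a target of Notch, and the later T cell genes Cd3e and Cd3g were at 0. They did hold Kit at 35.9, 29.3 and 33.9 FPKM, Flt3 at 28.2, 24.8 and 28.2 FPKM and Dntt, the lymphoid terminal transferase, at 29, 31.5 and 34.9 FPKM. Beside these stood the primary granule genes described below and the erythroid factor Klf1 at 33.6, 33.1 and 37.6 FPKM. The values thus meet the label only in part, and "BM ETP" is used below for the libraries that carry it. In these bulk samples fewer cells of a type and less RNA per cell cannot be told apart, nor can a mixture of neutrophils and monocytes be told from cells with both sets of genes.

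Across all 17416 genes tested, 7778 (44.7%) were called, with 4385 (25.2%) higher and 3393 (19.5%) lower in the myeloid libraries. Counts of the lists below are to be read beside these shares. Higher genes made up 56.4% of the calls, but 36.9% when every library was scaled to an equal total FPKM, a scaling that moved the median difference of all genes by -0.13 and that of the 7798 genes with a mean log2 level above 3 by -0.67. Removal of the length trend left 80.1% of the calls in place with the same sign, and 52 genes were then called in the opposite direction. Groups that do not overlap were also common, with both myeloid libraries above all 3 BM ETP libraries for 5603 genes (32.2%) and below for 4898 (28.1%). The myeloid libraries correlated at a Pearson r of 0.953 over genes, the BM ETP libraries at 0.972 to 0.976, and myeloid with BM ETP libraries at 0.771 to 0.785. Those coefficients run across genes, which are not independent replicates, and share the depth gap.

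**Figure D2:**
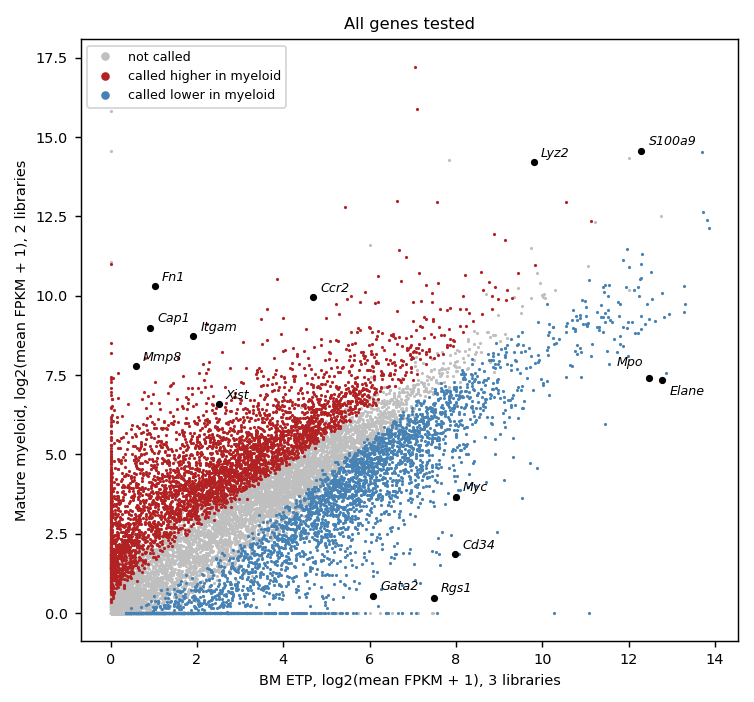
Group mean levels of all 17416 genes tested as log2(mean FPKM + 1), BM ETP on the x axis and mature myeloid on the y axis, coloured by call. Fn1, Ccr2 and Mmp8 lie far above the diagonal and Elane, Cd34, Gata2 and Rgs1 far below it.

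Primary granule genes were lower in the mature myeloid libraries. Of 10 members, 8 fell, 1 rose and 1 was not called, with a median difference of -4.34 where the median of all genes was 0. After removal of the length trend, when 25.8% of all genes were called higher and 16.1% lower, 7 fell and 1 rose, with a median of -3.53. Elane, neutrophil elastase, was 209 and 112 FPKM in the 2 myeloid libraries and 7935, 6972 and 6208 FPKM in the 3 BM ETP libraries. All 3 BM ETP libraries lay far above both myeloid libraries, with a difference of -5.51 ± 0.35 (adjusted p = 1.29e-20). Mpo, the heme enzyme that makes hypochlorous acid, was 203 and 133 FPKM in the myeloid and 5265, 6443 and 5291 FPKM in the BM ETP libraries, a difference of -5.09 ± 0.54 (adjusted p = 7.58e-12). Prtn3, proteinase 3, and Ctsg, cathepsin G, fell in the same way. Their differences were -5.34 ± 0.41 (adjusted p = 7.77e-17) and -5.47 ± 0.27 (adjusted p = 1.04e-25).

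The remaining members of the list split. Prss57, another serine protease of these granules, was 8.06 and 11.5 FPKM in the myeloid and 210.0, 222 and 209.5 FPKM in the BM ETP libraries, and Ms4a3, a membrane protein of granulocyte and monocyte progenitors, was 80.7 and 47.1 FPKM against 520.0, 621 and 522 FPKM. Both fell without overlap of the groups, with differences of -4.33 ± 0.62 (adjusted p = 3.44e-08) and -3.14 ± 0.22 (adjusted p = 8.43e-19). Cd63, a tetraspanin of granule membranes, fell by 1.93 on the log2 scale (adjusted p = 0.0173), and this call was lost once the length trend was removed (adjusted p = 0.488) and without the third BM ETP library (0.0517), the first myeloid library (0.0586) or the second (0.104). Serpinb1a, an inhibitor of the granule proteases, was 216 and 139 FPKM against 234, 228 and 264 FPKM and was not called. Ctsc, the peptidase that activates the granule proteases, ran the other way, at 432 and 498 FPKM in the myeloid and 49.9, 44.9 and 44.2 FPKM in the BM ETP libraries. It rose by 3.30 ± 0.35 (adjusted p = 4.80e-12).

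Secondary granule genes were higher instead. Of 12 members, 9 rose, none fell and 3 were not called, and the median difference was 2.70. After removal of the length trend 11 rose and the median was 3.76. Under equal totals, with the compared groups alone or with a pseudocount of 0.1, 7 rose. Mmp8, neutrophil collagenase, showed the widest gap of the list, at 209 and 227 FPKM in the myeloid and 0.862, 0.243 and 0.391 FPKM in the BM ETP libraries. Its difference was 7.21 ± 0.11 (adjusted p = 5.73e-51), and it was at 0 in every mature B, mature T, HSC and MPP library. Outside the myeloid group Mmp8 did not pass 1.35 FPKM in any library, so its standard error and p-value lean on groups in which it is silent. Ltf, lactoferrin, was 2037 and 1365 FPKM in the myeloid and 234, 61.9 and 124 FPKM in the BM ETP libraries, a rise of 3.76 ± 0.57 (adjusted p = 1.40e-07). Cd177, a neutrophil surface glycoprotein, was 431 and 344 FPKM against 60.9, 19.8 and 27.3 FPKM and rose by 3.54 ± 0.22 (adjusted p = 4.47e-21).

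The most abundant secondary granule genes were high in both groups. Camp, the cathelicidin precursor, was 6475 and 3882 FPKM in the myeloid and 4526, 987 and 1660.0 FPKM in the BM ETP libraries. The groups overlapped and Camp was not called, with a difference of 1.36 ± 0.88 (adjusted p = 0.224). Ngp, neutrophilic granule protein, was 10059 and 5979 FPKM in the myeloid and 2605, 722 and 1134 FPKM in the BM ETP libraries, and it rose by 2.59 ± 0.89 (adjusted p = 0.0138). Lcn2, an iron-scavenging lipocalin, was 3647 and 2160.0 FPKM against 1527, 418 and 619 FPKM and was not called (adjusted p = 0.0641). In each of these genes the first BM ETP library was the highest of its group and the second the lowest. Without the first BM ETP library Lcn2 was called (adjusted p = 0.0298), and the call of Ngp was lost without the second BM ETP library (0.068), without the first myeloid library (0.127) and under equal totals (0.0768). In HSC and MPP libraries Ngp did not pass 1 FPKM in the mean and Camp stood at 0.415 ± 0.497 (SD, n = 4) and 0.476 ± 0.611 FPKM (SD, n = 4).

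**Figure D3:**
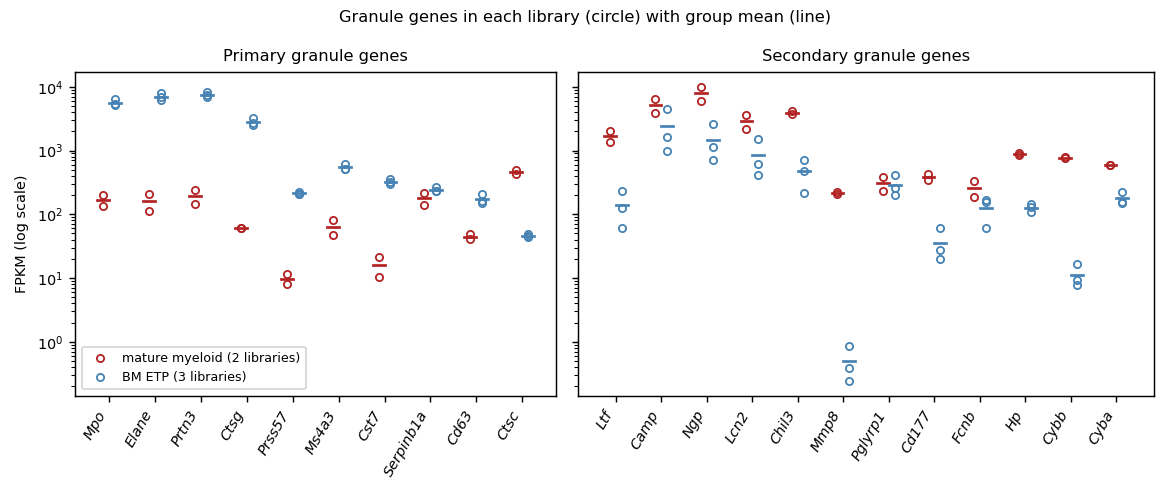
FPKM on a log axis of 10 primary and 12 secondary granule genes in each of 2 mature myeloid and 3 BM ETP libraries, with the group mean as a line. Elane, Mpo, Prtn3 and Ctsg are lower in the myeloid libraries, and Mmp8, Cybb, Ltf and Cd177 are higher, while Camp and Pglyrp1 overlap.

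Since the 2 granule classes moved in opposite directions, their promoters were searched for the core motif of C/EBP factors, which are regulators of granule genes, written TTGCNNAA and sought on both strands. Windows of 300 bases, from 250 before to 50 after each gene start, came from RefSeq on build GRCm38.p6. Of 32851 windows of all genes, 3547 (10.8%) held a match. A match was found for 5 of 11 secondary granule genes with a window (Fcnb, Lcn2, Mmp8, Ngp and Ltf) and for 2 of 8 primary granule genes (Cst7 and Ms4a3). A match describes letters and is neither a site nor a cause. Match and direction did not go together throughout, since Cybb, Cyba, Cd177 and Chil3 rose without a match. Both primary granule genes with a match, Cst7 and Ms4a3, fell, and Lcn2 held a match but was not called. Printed below are Ngp at chr9:110419558-110419857, Ltf at chr9:111019042-111019341 and Mmp8 at chr9:7558179-7558478, which rose and hold matches, and Elane at chr10:79886062-79886361, which fell and holds none. All are on the plus strand, and capitals mark the matches.
Ngp: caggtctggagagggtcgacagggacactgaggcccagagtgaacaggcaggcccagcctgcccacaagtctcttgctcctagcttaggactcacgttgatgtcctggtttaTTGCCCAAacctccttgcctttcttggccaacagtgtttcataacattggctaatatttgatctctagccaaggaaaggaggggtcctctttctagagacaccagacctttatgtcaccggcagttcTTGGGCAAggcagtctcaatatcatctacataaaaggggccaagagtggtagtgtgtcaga
Ltf: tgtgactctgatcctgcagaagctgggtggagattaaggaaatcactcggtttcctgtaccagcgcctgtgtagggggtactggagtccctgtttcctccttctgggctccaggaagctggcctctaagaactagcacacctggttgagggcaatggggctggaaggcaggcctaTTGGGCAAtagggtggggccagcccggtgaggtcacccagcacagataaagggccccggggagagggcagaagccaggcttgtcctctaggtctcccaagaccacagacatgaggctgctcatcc
Mmp8: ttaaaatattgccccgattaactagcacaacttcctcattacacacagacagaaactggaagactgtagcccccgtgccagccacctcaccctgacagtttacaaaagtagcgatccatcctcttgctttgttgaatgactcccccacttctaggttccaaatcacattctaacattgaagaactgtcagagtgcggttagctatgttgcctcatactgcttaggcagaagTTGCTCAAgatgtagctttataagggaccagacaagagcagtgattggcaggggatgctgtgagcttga
Elane: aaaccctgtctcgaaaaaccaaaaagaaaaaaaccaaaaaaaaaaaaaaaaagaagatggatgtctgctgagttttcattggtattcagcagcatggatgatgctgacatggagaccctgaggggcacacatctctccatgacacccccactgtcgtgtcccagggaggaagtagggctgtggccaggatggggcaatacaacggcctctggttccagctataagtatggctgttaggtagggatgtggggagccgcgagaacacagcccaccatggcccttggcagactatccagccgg

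Genes of later neutrophil stages rose in part. Of 20 members, 19 passed the filter on low values (at least 1 FPKM in at least 2 libraries), and of these 15 rose and none fell, with a median difference of 2.53 (16 and 3.25 after removal of the length trend). Under equal totals 11 members were called higher and 2 lower. S100a8 and S100a9, which form calprotectin, led by level. S100a9 was 29798 and 18838 FPKM in the myeloid and 8798, 2368 and 3905 FPKM in the BM ETP libraries. Although the groups did not overlap, the difference of 2.45 ± 1.04 only just passed (adjusted p = 0.0493). It did not pass without the second or the third BM ETP library (adjusted p = 0.162 and 0.0949) or without either myeloid library. Nor did it pass under equal totals (0.182), under quantile normalization (0.145) or without the filter (0.0648). S100a8 at 27754 and 14048 FPKM against 7188, 1954 and 3231 FPKM was not called (adjusted p = 0.0715), but was without the first BM ETP library (0.0484). Retnlg, a resistin-like protein of neutrophils, was 89.7 and 79.3 FPKM against 1.31, 0.472 and 1.83 FPKM and rose by 5.33 ± 0.46 (adjusted p = 3.77e-15). Ccl6, a chemokine of myeloid cells, was 596 and 660.2 FPKM against 21.8, 14.8 and 7.89 FPKM and rose by 5.42 ± 0.44 (adjusted p = 4.43e-16).

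Receptors in the list differed in level. Fpr2, a receptor of formyl peptides, was 130.2 and 94.8 FPKM in the myeloid and 13.4, 1.65 and 3.85 FPKM in the BM ETP libraries (difference 4.30 ± 0.43, adjusted p = 8.32e-13). Cxcr2, the chemokine receptor that draws neutrophils into blood, was 11.3 and 7.44 FPKM in the myeloid and 0.341, 1.03 and 0.744 FPKM in the BM ETP libraries. Il1b, interleukin 1 beta, was 6.99 and 6.27 FPKM against 7.92, 1.18 and 0 FPKM, and the first BM ETP library stood above both myeloid libraries although the gene was called higher (difference 1.503 ± 0.37, adjusted p = 4.81e-04). Mmp25, a membrane-bound protease, was 10.1 and 8.68 FPKM in the myeloid libraries and at 0 in all 3 BM ETP libraries. Slpi, a protease inhibitor, and G0s2 were not called, with Slpi at 169 and 109.8 FPKM against 220.1, 245 and 219.8 FPKM.

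The NADPH oxidase, which makes superoxide at the granule and cell membrane, rose in its membrane subunit most. Of 9 members 5 rose and 1 fell (6 and 1 after removal of the length trend). Cybb, the catalytic subunit, was 754 and 794 FPKM in the myeloid and 16.4, 7.88 and 9.46 FPKM in the BM ETP libraries and rose by 6.05 ± 0.36 (adjusted p = 1.21e-21). Its partner Cyba was 596 and 589 FPKM against 226, 149 and 158 FPKM, a smaller rise of 1.76 ± 0.25 (adjusted p = 3.85e-08). The cytosolic subunit Ncf1 rose by 2.38 ± 0.41 (adjusted p = 1.56e-06), and Ncf4, at 279 and 238 FPKM against 191, 163 and 167 FPKM, was not called. Rac2, the GTPase of the complex in blood cells, fell from 469, 392 and 441 FPKM in the BM ETP to 268 and 238 FPKM in the myeloid libraries (difference -0.78 ± 0.15, adjusted p = 2.60e-05).

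Monocyte and macrophage genes rose by wide margins. Of 20 members, 19 were tested and 17 rose, with none lower and a median difference of 4.14 (18 and 4.08 after removal of the length trend). Fn1, fibronectin, was 1168 and 1352 FPKM in the myeloid and 1.61, 1.28 and 0.184 FPKM in the BM ETP libraries, a rise of 9.36 ± 0.16 (adjusted p = 2.33e-49). Ccr2, the chemokine receptor by which classical monocytes leave the marrow, was 932 and 1047 FPKM against 25.2, 27 and 22.6 FPKM and rose by 5.26 ± 0.42 (adjusted p = 3.52e-16). F13a1, the clotting factor XIII subunit of monocytes, was 961 and 1253 FPKM against 61.5, 57.8 and 56.4 FPKM (difference 4.21 ± 0.50, adjusted p = 2.45e-10). The myeloid libraries lay far above the BM ETP libraries in all of these.

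Lyz2, lysozyme, was 18458 and 19466 FPKM in the myeloid and 1209, 688 and 777 FPKM in the BM ETP libraries and rose by 4.45 ± 0.74 (adjusted p = 8.80e-07). Csf1r, the receptor of the macrophage growth factor, rose less, from 62.1, 50.7 and 52 FPKM to 279 and 319 FPKM (difference 2.43 ± 0.40, adjusted p = 9.25e-07). Genes of non-classical monocytes were present as well. Cx3cr1, the fractalkine receptor, was 109 and 133 FPKM against 2.32, 1.39 and 0.845 FPKM, Treml4 was 30.5 and 33.5 FPKM against 1.11, 0.356 and 0.824 FPKM, and Ace was 41.2 and 36.3 FPKM in the myeloid libraries and at 0 in BM ETP. Genes of resident macrophages were low, with the mannose receptor Mrc1 at 4.64 and 7.68 FPKM, the complement subunit C1qa at 4.23 and 5.36 FPKM and the scavenger receptor Marco at 0. Ly6c2, a surface antigen of classical monocytes and of progenitors, was 1187 and 1147 FPKM in the myeloid and 4607, 4354 and 3327 FPKM in the BM ETP libraries. It was the only list member with a negative difference beyond 1 on the log2 scale, -1.80 ± 0.78, and was not called (adjusted p = 0.055). It was called lower with a pseudocount of 5 (adjusted p = 0.00156), under equal totals (0.00635), with the compared groups alone (0.00649) and with a filter at a mean of 5 FPKM (0.0378).

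Receptors that sense microbes and antibody rose for 15 of 20 members with none lower, a median difference of 2.70 (18 and 3.02 after removal of the length trend). Under equal totals 12 rose and 1 fell, and 12 rose with a pseudocount of 0.1. The endosomal sensor Tlr8, which binds RNA, was 91 and 92.2 FPKM against 0, 0.0603 and 0 FPKM and rose by 6.50 ± 0.08 (adjusted p = 2.00e-55). Tlr13, a sensor of bacterial ribosomal RNA, was 84.9 and 108 FPKM against 0, 0.329 and 0.636 FPKM and rose by 6.22 ± 0.12 (adjusted p = 1.72e-45). Tlr8 and Tlr13 did not pass 0.0603 and 0.636 FPKM in any other library of the series. Both met the filter on low values through the myeloid libraries alone, so their calls add nothing to the levels. Nlrp3, the inflammasome sensor, was 22.8 and 33 FPKM against 0.33, 0 and 0.048 FPKM, and Clec7a, the beta-glucan receptor dectin 1, was 186 and 204 FPKM against 10.7, 9.96 and 9.71 FPKM. The signalling adaptor Tyrobp was already high in BM ETP, at 1651 and 1690.5 FPKM against 1136, 914 and 778 FPKM, and was not called (adjusted p = 0.593). Cd14, Fcgr2b, Fcgr3 and Clec12a were not called either.

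Adhesion and chemotaxis genes rose for 14 of 17 tested members with none lower (12 after removal of the length trend, and 9 with 3 lower under equal totals). Itgam, the CD11b integrin of neutrophils and monocytes, was 444 and 400.1 FPKM in the myeloid and 4.22, 1.41 and 2.65 FPKM in the BM ETP libraries, a rise of 6.88 ± 0.50 (adjusted p = 5.30e-18). Its partner Itgb2 was 497 and 429.6 FPKM against 61, 47.3 and 46.1 FPKM and rose by 3.15 ± 0.39 (adjusted p = 6.42e-10). Cxcr4, the receptor that holds cells in the marrow, was 135 and 148 FPKM against 4.57, 3.65 and 3.86 FPKM (difference 4.83 ± 0.55, adjusted p = 5.17e-11). Selplg, the ligand of P-selectin, was even between the groups at 301 and 318 FPKM against 262, 253 and 259.8 FPKM and was not called.

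Growth factor receptors moved in both directions. Of 16 members 9 rose and 4 fell (10 and 4 after removal of the length trend). Csf3r, the receptor of granulocyte colony-stimulating factor, was 167 and 181 FPKM in the myeloid and 29.8, 26.9 and 31.2 FPKM in the BM ETP libraries (difference 2.53 ± 0.24, adjusted p = 1.77e-13), and Il6ra was 135 and 154 FPKM against 1.15, 2.95 and 0.782 FPKM (difference 5.87 ± 0.41, adjusted p = 1.44e-18). Kit, Epor and Il1r1 were among those that fell. Epor, the erythropoietin receptor, was at 0 in both myeloid libraries and 9.61, 6.86 and 7.93 FPKM in BM ETP. Flt3 and Il3ra were not called, with Flt3 at 15.4 and 18.5 FPKM against 28.2, 24.8 and 28.2 FPKM.

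Transcription factors moved in both directions, with 7 of 20 higher, 6 lower and a median difference of 0.31. After removal of the length trend 9 were higher and 5 lower with a median of 1.04, while under equal totals 7 were called in each direction with a median of -0.38. Cebpb, a factor of monocytes and of stress granulopoiesis, was 49.1 and 33.4 FPKM in the myeloid and 0.944, 1.55 and 1.77 FPKM in the BM ETP libraries and rose by 4.12 ± 0.39 (adjusted p = 8.54e-14). Klf4, a monocyte factor, was 87.7 and 94.7 FPKM against 10.3, 9.32 and 9.07 FPKM (difference 3.13 ± 0.48, adjusted p = 1.66e-07). Spi1, the myeloid master factor PU.1, was 430.1 and 394 FPKM against 89.8, 90.8 and 125 FPKM (difference 2.02 ± 0.43, adjusted p = 6.66e-05). Cebpe, which is required for secondary granules, rose by a smaller 1.28 ± 0.20 (adjusted p = 1.58e-07), at 80.2 and 44.4 FPKM against 33.5, 19.6 and 21 FPKM. Cebpa and Irf8 did not pass, with Irf8 at 136 and 136 FPKM against 222, 245 and 221 FPKM.

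The factors that fell were Gfi1, Runx1, Myb, Myc, Egr1 and Junb. Myc, the growth factor response gene, was 10.5 and 12.8 FPKM in the myeloid and 248, 219 and 294 FPKM in the BM ETP libraries, a fall with a difference of -4.32 ± 0.40 (adjusted p = 4.52e-14). Gfi1, a repressor needed for neutrophil formation, was 13.9 and 8.44 FPKM against 63.7, 73.2 and 76.9 FPKM (difference -2.60 ± 0.31, adjusted p = 1.85e-10), and Myb, a progenitor factor, was 14.3 and 16.8 FPKM against 73.2, 84.4 and 84.7 FPKM (difference -2.30 ± 0.31, adjusted p = 4.43e-09). In each the 3 BM ETP libraries lay above both myeloid libraries.

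Stem and progenitor genes fell for 18 of 20 members, with none higher and a median difference of -2.97 (18 and -3.09 after removal of the length trend). Cd34, a surface sialomucin of progenitors, was 3.22 and 2.02 FPKM in the myeloid and 251, 232 and 272 FPKM in the BM ETP libraries, a difference of -6.14 ± 0.32 (adjusted p = 4.05e-24). Gata2, a factor of stem, mast and erythroid progenitors, was 0.312 and 0.625 FPKM against 61, 56.5 and 82.8 FPKM (difference -5.52 ± 0.35, adjusted p = 2.23e-20). Hoxa7 was at 0 in both myeloid libraries and 18.2, 21.1 and 19.8 FPKM in BM ETP. Adgrg1, an adhesion receptor of stem cells, was 2.34 and 2.93 FPKM against 98, 70.7 and 117 FPKM (difference -4.70 ± 0.37, adjusted p = 8.48e-17). The 2 members without a call were Erg, at 13.1 and 7.14 FPKM against 7.18, 6.42 and 4.91 FPKM, and Flt3. Against the mean of HSC and MPP, 13 of these 20 genes were lower in BM ETP and 1 was higher, where 18.6% of all genes were called lower and 14% higher. The stem cell factor Mecom was 3.63, 1.53 and 4.42 FPKM in BM ETP against 53.2 ± 7.6 FPKM in HSC (SD, n = 4).

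**Figure D4:**
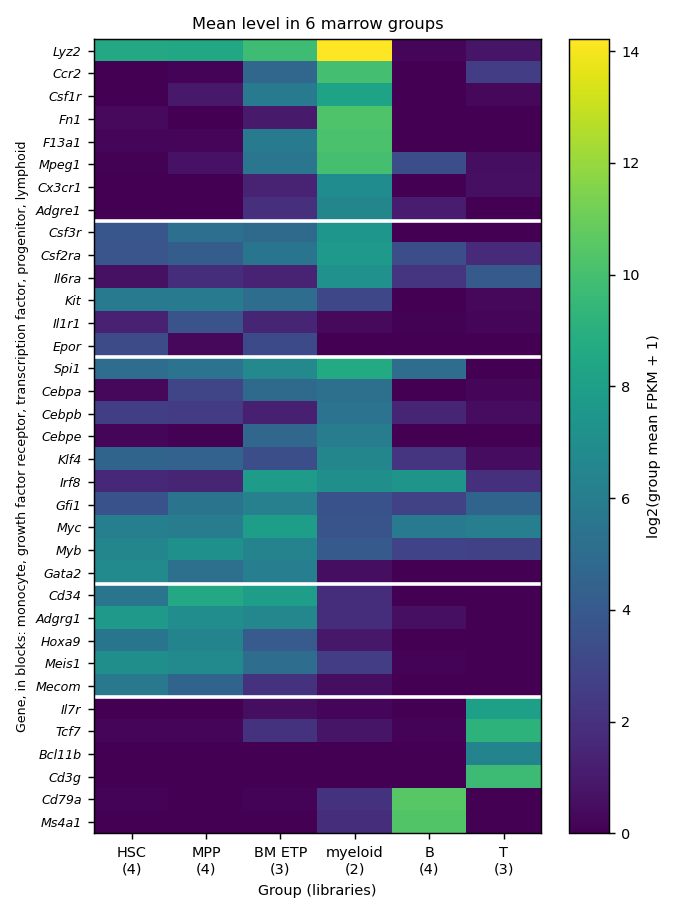
Mean level in 6 marrow groups as log2(group mean FPKM + 1) for 35 genes in blocks of monocyte, growth factor receptor, transcription factor, progenitor and lymphoid genes, with the number of libraries under each group. The monocyte block is brightest in the myeloid column, Cd34, Myc and Gata2 are bright in BM ETP and dark in myeloid, and Il7r, Bcl11b and Cd3g are bright in T cells only among these 6 groups.

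DNA replication and mitosis genes did not move together. Of 20 replication genes 14 fell and 2 rose, with a median difference of -1.80 (15, 2 and -1.09 after removal of the length trend). Dut, the dUTPase, was 34.6 and 18.6 FPKM in the myeloid and 350.0, 337 and 335 FPKM in the BM ETP libraries (difference -3.69 ± 0.19, adjusted p = 1.91e-24), and the helicase subunit Mcm2 was 29.8 and 19.98 FPKM against 202, 179 and 198 FPKM (difference -2.93 ± 0.20, adjusted p = 2.49e-19). The 2 that rose were Rrm2, a ribonucleotide reductase subunit, at 101 and 72.1 FPKM against 19, 19.1 and 15.6 FPKM, and Fen1, a flap nuclease, at 19.9 and 23.2 FPKM against 4.32, 1.78 and 2.93 FPKM. Of 20 mitosis genes 7 rose, none fell and 13 were not called, while 3 were called lower under equal totals and 7 rose after removal of the length trend. Mki67, the proliferation antigen, was 125 and 129 FPKM in the myeloid and 10.6, 14.3 and 12.3 FPKM in the BM ETP libraries and rose by 3.26 ± 0.33 (adjusted p = 9.76e-13), with a difference of 2.41 after removal of the length trend. Top2a, a topoisomerase of dividing cells, was 138 and 122 FPKM against 104, 82.7 and 75.8 FPKM and was not called. Against mature B and T cells the myeloid libraries were higher for all 20 mitosis genes (28.6% of all genes were called higher in that comparison), with Mki67 at 0.739 ± 0.883 FPKM in B (SD, n = 4) and 0.394 ± 0.361 FPKM in T cells (SD, n = 3).

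Genes of ribosome building fell for 13 of 20 members and rose for 1, with a median difference of -1.32 (14, 0 and -1.06 after removal of the length trend). Npm1, nucleophosmin, was 326 and 327 FPKM in the myeloid and 1807, 1875 and 1905 FPKM in the BM ETP libraries, a difference of -2.51 ± 0.14 (adjusted p = 3.08e-23). Nhp2, a protein of small nucleolar particles, was 29.5 and 28.9 FPKM against 245, 224 and 244 FPKM (difference -2.98 ± 0.27, adjusted p = 1.40e-14). Ncl, nucleolin, was the member called higher, at 55 and 56.8 FPKM against 28.9, 44.9 and 43.1 FPKM, with a difference of 0.54 (adjusted p = 0.0369) that turned to -0.31 after removal of the length trend and to -0.16 under equal totals. Its call was also lost without the first BM ETP library (adjusted p = 0.261) and without either myeloid library (0.11 and 0.149).

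In energy metabolism most tricarboxylic acid cycle genes fell, while calls of glycolysis genes were near the shares of all genes (25.2% higher and 19.5% lower). Of 16 cycle genes 12 fell and none rose, with a median difference of -1.58 (11 and -0.88 after removal of the length trend). Idh2, mitochondrial isocitrate dehydrogenase, was 37.5 and 46.8 FPKM in the myeloid and 334, 382 and 302 FPKM in the BM ETP libraries, a difference of -2.98 ± 0.25 (adjusted p = 1.30e-15). Of 16 glycolysis genes 5 rose, 3 fell and 8 were not called, and 3 rose without the first BM ETP or without the first myeloid library. Under equal totals 2 rose and 6 fell, and after removal of the length trend 4 rose and 3 fell. Slc16a3, a lactate exporter, was 42.6 and 25.9 FPKM against 0.705, 0.881 and 0.17 FPKM and rose by 4.46 ± 0.19 (adjusted p = 5.97e-28), while Ldha, lactate dehydrogenase A, was 200.3 and 226 FPKM against 959.7, 799 and 772 FPKM and had a difference of -1.98 ± 0.18 (adjusted p = 1.85e-14). Mitochondrially encoded genes gave 4 calls in each direction of 13 as deposited and 9 higher with none lower after removal of the length trend, so their direction depends on that step. The widest of them, mt-Atp8, was 6926 and 8827 FPKM against 187, 280.2 and 96 FPKM, and its short frame overlaps mt-Atp6, so reads of the pair could be split in counting.

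Interferon response genes rose for 12 of 16 members and fell for 1, with a median difference of 1.78 (14, 1 and 2.50 after removal of the length trend). Under equal totals, and also without the second BM ETP library, 9 rose. Irf7, the factor that amplifies interferon, was 104 and 109 FPKM in the myeloid and 8.33, 7.42 and 16.6 FPKM in the BM ETP libraries (difference 3.27 ± 0.53, adjusted p = 5.95e-07), and Mx1, an antiviral GTPase, was 55.3 and 71.3 FPKM against 2.43, 4.46 and 3.47 FPKM (difference 3.87 ± 0.68, adjusted p = 3.28e-06). The member that fell was Ifitm1, at 14.2 and 15.7 FPKM against 371, 311 and 373 FPKM. In the comparison of BM ETP with HSC and MPP, 13 of these 16 genes were lower in BM ETP and none higher. Of all genes 18.6% were called lower and 14% higher there.

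Inflammatory mediators were mixed, with 4 of 16 tested members higher and 4 lower (6 and 4 after removal of the length trend). The first 2 counts are near the 25.2% and 19.5% of all genes called higher and lower. Tgfb1, transforming growth factor beta 1, was 106 and 108 FPKM in the myeloid and 2.34, 1.96 and 3.15 FPKM in the BM ETP libraries and rose by 4.97 ± 0.57 (adjusted p = 8.93e-11), and Ccl4, a chemokine, was 3.73 and 1.91 FPKM against 217, 169.9 and 163 FPKM and fell (difference -5.62 ± 0.80, adjusted p = 2.54e-08). Cxcl2 and Ptgs2, made by activated myeloid cells, were at 0 in both myeloid libraries. Immediate early genes, which respond within minutes to handling and signals, fell for 8 of 16 members and rose for 2, with a median difference of -0.57 that turned to 0.34 after removal of the length trend, when 6 fell and 4 rose. Fos was 109 and 152 FPKM in the myeloid and 890.5, 919 and 840.1 FPKM in the BM ETP libraries (difference -2.77 ± 0.34, adjusted p = 4.35e-10), and Klf6 was 70.6 and 70.0 FPKM against 21.2, 19.8 and 21.4 FPKM and rose by 1.71 ± 0.32 (adjusted p = 7.49e-06).

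Markers of other cells were read for what the sorts could hold. The summed level of the 4 immunoglobulin constant and joining chain genes in the table was 1271 to 1348 FPKM in the myeloid and 175 to 216 FPKM in the BM ETP libraries, against 50478 to 83167 FPKM in mature B cells. Igkc, the kappa constant gene, was 988 and 939.6 FPKM against 65, 6.62 and 59.7 FPKM. All 4 were called higher, also after removal of the length trend, but 3 without the first or the third BM ETP library or either myeloid library and 2 with a pseudocount of 0.1. Of the 15 other B lineage genes Cd79a, Ms4a1 and Pax5 were called higher and Cd79b and Cd72 lower, where 25.2% of all genes were called higher and 19.5% lower. The 15 genes summed to 28.3 to 42 FPKM in the myeloid, 102 to 115 in the BM ETP and 9299 to 12434 FPKM in the mature B libraries. The counts were the same after removal of the length trend, and without the first myeloid library 2 were higher and 3 lower. Pax5, a B cell factor, was at 1.56 and 0 FPKM in the 2 myeloid libraries and at 0 in all 3 BM ETP libraries, so that its call rests on 1 library. The B receptor subunit Cd79a was 3.58 and 2.89 FPKM in the myeloid libraries against 1463 ± 386 FPKM in mature B cells (SD, n = 4), and Vpreb3 and Fcer2a were at 0. The part of B cells in the Igkc level was not tested.

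T lineage genes summed to 6.09 to 15.4 FPKM over 14 members in the myeloid libraries, 40.0 to 50.4 in BM ETP and 5136 to 5968 in mature T cells. Only Cd3d was called higher, or 2 and 3 members without the second BM ETP and the first myeloid library, and 2 after removal of the length trend. The BM ETP sum was mostly Lat, an adaptor of T cells and platelets, at 44.5, 35.8 and 47.5 FPKM against 0.862 and 1.74 FPKM in the myeloid libraries. Natural killer genes were higher for 5 of 10 members and lower for 2, or 1 without the first BM ETP library, without the third BM ETP library or without the first myeloid library. After removal of the length trend 7 were higher and 1 lower, and with a filter at a mean of 5 FPKM 2 of the 5 members left were higher. Among them Gzma, granzyme A, was 20.8 and 19.8 FPKM in the myeloid libraries and at 0 in BM ETP, while Nkg7, a granule membrane protein of cytotoxic cells, was 20.005 and 2.64 FPKM against 725, 781 and 719 FPKM. Nkg7 fell with a difference of -6.41 ± 0.72 (adjusted p = 4.39e-11), and its BM ETP level was close to the 695 ± 79.1 FPKM of T cells (SD, n = 3).

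Erythroid and platelet genes fell for 10 of 15 members and rose for 1, with a median difference of -2.23 (9, 3 and -2.10 after removal of the length trend). Their sum was 748 to 852 FPKM in BM ETP and 19.5 to 30.7 in the myeloid libraries. Car1, carbonic anhydrase 1, was 107, 154 and 165 FPKM in BM ETP and 0.912 and 0.922 FPKM in the myeloid libraries (difference -6.20 ± 0.28, adjusted p = 2.09e-27), and Pf4, platelet factor 4, was 335, 231 and 144 FPKM in BM ETP and 2.19 and 6.78 FPKM in the myeloid libraries (difference -5.49 ± 0.33, adjusted p = 1.20e-21). The member that rose was Alas2, a heme synthesis enzyme, at 2.29 and 1.08 FPKM against 0, 0 and 0.105 FPKM, and the globin gene Hbb-bs, at 1.51 and 4.61 FPKM against 3.12, 2.72 and 1.26 FPKM, was not called.

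Eosinophil, basophil and mast cell genes were higher for 6 of 12 members and lower for 3 (8 and 2 after removal of the length trend). Prg2, the eosinophil major basic protein, was 258 and 246 FPKM in the myeloid and 133, 29.7 and 17.9 FPKM in the BM ETP libraries and rose by 2.57 ± 0.73 (adjusted p = 0.00284). Prss34, a basophil protease, was 31.7 and 40.0 FPKM against 0, 0.364 and 0 FPKM and rose by 5.05 ± 0.09 (adjusted p = 8.09e-47). Prss34 met the filter on low values through the myeloid libraries alone, so its call adds nothing to the levels. The mast cell and progenitor protease Cpa3 ran the other way, at 4.31 and 5.08 FPKM against 66, 68.5 and 84.6 FPKM (difference -3.69 ± 0.65, adjusted p = 2.65e-06). Dendritic and class II genes were higher for 4 of 14 members and lower for 1 (6 and 1 after removal of the length trend). Of all genes 25.2% were called higher and 19.5% lower, so the higher count is near the share of all genes. Cd74, the invariant chain, was 731 and 782 FPKM against 161, 283 and 219 FPKM and rose by 1.81 ± 0.59 (adjusted p = 0.00922), a call lost without the second myeloid library (0.0608) and under equal totals (0.143). H2-Ab1, at 177 and 205 FPKM against 309.8, 587 and 521 FPKM, was not called.

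Early lymphoid genes gave 2 higher and 5 lower of 18 (2 and 4 after removal of the length trend). The shares of all genes were 25.2% higher and 19.5% lower (25.8% and 16.1% after that removal). The fall of Dntt, from 29, 31.5 and 34.9 FPKM in BM ETP to 0.486 and 0.489 FPKM in the myeloid libraries, was the widest (difference -4.46 ± 0.18, adjusted p = 5.73e-30). Notch1, the receptor that starts T cell commitment, was higher in the myeloid libraries, at 29.4 and 21.7 FPKM against 5.79, 5.48 and 4.44 FPKM (difference 2.08 ± 0.25, adjusted p = 4.06e-10).

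**Figure D5:**
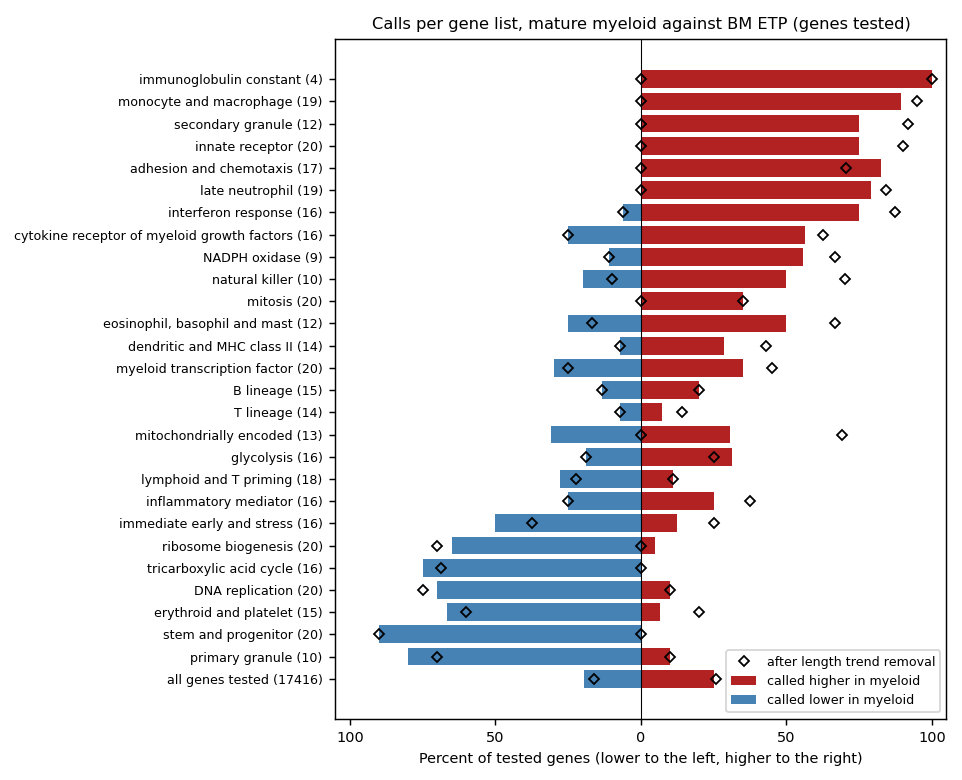
Percent of tested genes in each list called higher (right) or lower (left) in the mature myeloid libraries, with diamonds for the same after length trend removal and all 17416 genes as the bottom bar. Monocyte, secondary granule and innate receptor lists lie to the right, and progenitor, primary granule and tricarboxylic acid cycle lists to the left.

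The 12 largest rises under the naming rule were Fn1, Cap1, Slfn1, Clec4a1, Tfcp2l1, Clec4a3, Klra2, Mmp8, Pla2g7, Vcan, Tgfbi and Itgam. Vcan, versican of classical monocytes, was 117 and 133 FPKM in the myeloid libraries, and Pla2g7, the lipase that degrades platelet-activating factor, was 136 and 137 FPKM, and both were at 0 in all 3 BM ETP libraries. Klra2 was 142 and 186 FPKM and Slfn1 171 and 173 FPKM in the myeloid libraries, and both were at 0 in BM ETP too. Clec4a1, Clec4a3 and Klra2 belong to families of near copies, among which reads could be split. Cap1, a widely expressed actin regulator, was 489 and 527 FPKM against 0.701, 1.13 and 0.8 FPKM, with mature B, mature T, HSC and MPP means of at most 2.28 FPKM. Tfcp2l1, a transcription factor better known from epithelia, was 185 and 157 FPKM against 0.0264, 0.0398 and 0.0385 FPKM and is 1 of the 107 genes of the myeloid libraries named above.

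The 12 largest falls were Rgs1, Rangrf, Nkg7, Ptprcap, Abhd14a, Car1, Cd34, Rab38, Muc13, Nme4, Ccl4 and Gata2. Rgs1, a regulator of chemokine receptor signalling, was 0 and 0.814 FPKM in the myeloid and 165, 164 and 205 FPKM in the BM ETP libraries, a difference of -7.05 ± 0.59 (adjusted p = 1.52e-15). Ptprcap, a partner of the phosphatase CD45 in lymphoid cells, was 4.86 and 4.93 FPKM against 508, 441 and 535 FPKM (difference -6.39 ± 0.23, adjusted p = 3.02e-32). Muc13, a mucin of progenitors and epithelia, was 0 and 0.334 FPKM against 68.8, 61.6 and 87 FPKM (difference -5.98 ± 0.34, adjusted p = 1.36e-22). Rangrf and Abhd14a were at 0 in both myeloid libraries, and in BM ETP Rangrf was 117, 135 and 119 FPKM and Abhd14a 94.4, 71.7 and 78.9 FPKM.

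Set against other mature marrow cells, the myeloid libraries had 8283 of 17416 genes (47.6%) called, with 4986 (28.6%) higher and 3297 (18.9%) lower than the mean of mature B and T cells. Higher genes made up 60.2% of these calls, and 49.5% under equal totals and also under quantile normalization. All 12 secondary granule genes, all 19 monocyte genes tested and 9 of 10 primary granule genes were higher there. Elane, for instance, was at 0 in every mature B and T library. BM ETP against the mean of HSC and MPP gave 5673 calls (32.6%), with 2434 (14%) higher and 3239 (18.6%) lower. All 12 secondary granule genes and 8 of 10 primary granule genes were higher in BM ETP, with Mpo at 8.13 ± 5.78 FPKM in MPP (SD, n = 4) and 0 in HSC. The first of these comparisons shares the myeloid libraries with the main one and the second shares the BM ETP libraries. Per length, the level of Elane was above that of Ltf in every BM ETP library and below it in both myeloid libraries.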

How the data were processed

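RNA-seq of 76 libraries was deposited as 1 table of FPKM for 37980 gene IDs. Per the submitters' processing notes, the authors used bcl2fastq, TopHat, Cufflinks 2.2.1 and Cuffnorm with build NCBIM37, and the deposited FPKM were normalized across libraries by Cuffnorm. Parameters and annotation are not given in the sources used here. Symbols were found for 32916 IDs (86.7%). No counts were used here, so depth was read only from value steps and has no interval.

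The 17416 genes that reached 1 FPKM in 2 libraries or more were tested in limma 3.58.1 (R 4.3.3) on log2(FPKM + 1), with 1 mean per group over 75 libraries, a trended and robust prior, a two-sided moderated test, and Benjamini-Hochberg adjustment over all genes tested. Genes such as Tlr8, Tlr13, Nlrp3, Prss34, Ace, Klra2 and Tfcp2l1 passed this filter through the 2 myeloid libraries alone. The filter thus favoured their calls as higher, and list counts that hold such genes share this limit. Sharing 1 spread over all groups left 51 residual degrees of freedom, and the 2 myeloid libraries are thus assumed to vary like the others. In an alternative fit, the trend of log2 values with gene length was removed per library. Python 3.11.15 with pandas 2.3.3 and matplotlib 3.10.9 was used for summaries and figures. The fit was tested on simulated data with normal noise. These held neither the depth gap nor the length trend between the groups, so that test cannot vouch for the calls.

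Text genes were list members and the 12 most changed genes in each direction whose adjusted p was under 0.05, whose groups did not overlap and where one group averaged 5 FPKM or more, predicted genes, clones, pseudogenes, small RNAs, ribosomal protein copies and receptor segments left out. Members and lists were chosen with earlier results of these data known. Genes named outside both were chosen after their values were seen. Alternatives were the pseudocount (0.1 and 5), the filter, quantile, equal-total and median-ratio scaling, library weights, the compared groups alone, each replicate left out, a replicate block and the length trend. Median-ratio scaling and the length trend were added after seeing the data. Some list members are counted in their lists but not reported by name here.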

Additional observations from a re-analysis of the deposited data

How the results depend on the processing

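The total of 7778 calls stayed between 6410 and 8400 over all alternatives. With each library left out it ran from 6410 to 7326, with 3698 to 4100 genes higher and 2712 to 3247 lower. Among the counts over all genes in the 3 comparisons, the only one to move by over 1.5 times was that of genes higher in the myeloid libraries, 2740 in place of 4385 under equal totals. That scaling divided the myeloid libraries by 2.29 and 1.27 and the BM ETP libraries by 1.10, 1.02 and 1.01. These divisors follow from the total FPKM of each library, of which the 10 highest genes held 65.4% and 45.5% in the myeloid libraries. The cause of the larger myeloid totals was not tested. Of 840 list counts under alternatives, 775 stayed within 1.5 times. Of 75 genes named with a test, 60 kept direction and call under every alternative. Across 1125 gene values 34 lost the call, 17 gained it and 2 reversed, which were Ncl at -0.16 under equal totals and -0.31 after removal of the length trend. A pseudocount of 0.1 ended the calls of Cd63, Cd74, Cebpe, Csf1r, Ngp, Prg2, S100a9 and Spi1. The fit of the compared groups alone ended those of Cebpe, Il1b, Ncl, Ngp, Prg2 and S100a9. No paired analysis was possible for the myeloid comparison because the labels give the myeloid and BM ETP libraries no shared numbers. For BM ETP against HSC and MPP, the replicate block gave 5899 calls in place of 5673. Same-numbered libraries of these groups deviated together at -0.0352 to 0.131, and differently numbered ones at -0.128 to 0.0999. Whether the numbers pair the samples cannot be told from these values. Depth near 0.992 fragments per FPKM and kilobase limits low genes in the myeloid libraries, where 1 fragment of a short transcript is worth over 1 FPKM.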
